A study of Mus musculus with 6 samples.

Results

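The transcripts described here are those of 10 genes of the vascular endothelium, several of them known targets of HIF-2 there, measured in cells of another lineage: Tek, Tie1, Kdr, Flt1, Angpt2, Pecam1, Vwf, Cdh5, Egfl7 and Nos3. Each gene was read from the probe set that carries its symbol alone in the platform annotation, and each of the 10 had 1 such probe set, out of 22180 genes tested. The cells, fibroblast-like synoviocytes (fibroblasts that line the joint cavity), came from the knee synovium of C57BL6 mice and were used at passages 4 to 8. On 3 arrays the cells had received an adenovirus carrying Epas1 (Ad-Epas1), and on 3 an empty adenovirus (Mock), so that both groups were infected cells, kept for 24 h after a 2 h exposure at a multiplicity of infection of 800. The age and sex of the mice and the promoter that drove Epas1 are not given in the sources used here. The submitters call the 3 replicates of each group biological and do not say whether animals or cultures differed between them, so each p-value reflects the spread among these 6 arrays.

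HIF-2 is a transcription factor made of an oxygen-regulated subunit, HIF-2alpha, which Epas1 encodes, and a constant partner, ARNT. It binds short hypoxia response elements and is found in endothelium, where it is known to act on Kdr, Tek, Cdh5 and Nos3, at mouse Kdr together with the factor ETS1. The genes fall into roles. Kdr and Flt1 are receptors of the growth factor VEGF-A, Tek and Tie1 are the receptors of the angiopoietin system, and Angpt2 is a ligand of Tek. Pecam1 and Cdh5 encode adhesion proteins at the contacts between endothelial cells, Vwf the clotting protein von Willebrand factor, Egfl7 a protein secreted by endothelium, and Nos3 endothelial nitric oxide synthase.

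The promoters of the genes on which the results turn are shown so that the letters of a hypoxia response element can be seen beside the measured response. RefSeq windows of 300 bases, from 250 before to 50 after the transcript start on build GRCm38.p6, were at hand for 5 of the 10 genes (Tek, Tie1, Kdr, Flt1 and Egfl7, the last with 3 starts). Capitals mark the core of the hypoxia response element (ACGTG or GCGTG) and a core bound by ETS factors (CCGGAAG or CAGGAAG), each searched on both strands, and the sequences run 5′ to 3′ on the strand of the gene.
Kdr (chr5:75978406-75978705, strand -): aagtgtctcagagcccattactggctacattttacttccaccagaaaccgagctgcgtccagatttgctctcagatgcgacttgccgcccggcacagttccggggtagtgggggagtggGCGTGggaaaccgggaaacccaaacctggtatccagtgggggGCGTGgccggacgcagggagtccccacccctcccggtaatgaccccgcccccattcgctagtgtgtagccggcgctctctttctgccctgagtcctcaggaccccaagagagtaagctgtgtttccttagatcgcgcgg
Flt1 (chr5:147725962-147726261, strand -): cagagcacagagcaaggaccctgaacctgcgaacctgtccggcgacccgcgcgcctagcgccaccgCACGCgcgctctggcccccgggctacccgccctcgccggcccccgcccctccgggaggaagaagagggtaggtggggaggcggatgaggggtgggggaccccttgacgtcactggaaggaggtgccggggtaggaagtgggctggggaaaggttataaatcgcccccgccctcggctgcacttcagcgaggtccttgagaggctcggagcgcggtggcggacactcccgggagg
Tek (chr4:94739039-94739338, strand +): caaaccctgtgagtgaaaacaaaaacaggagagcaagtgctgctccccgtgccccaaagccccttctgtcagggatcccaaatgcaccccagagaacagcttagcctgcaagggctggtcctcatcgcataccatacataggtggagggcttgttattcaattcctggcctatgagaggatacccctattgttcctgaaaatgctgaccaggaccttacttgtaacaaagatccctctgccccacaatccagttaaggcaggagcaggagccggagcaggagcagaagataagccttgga
Egfl7 (chr2:26580833-26581132, strand +): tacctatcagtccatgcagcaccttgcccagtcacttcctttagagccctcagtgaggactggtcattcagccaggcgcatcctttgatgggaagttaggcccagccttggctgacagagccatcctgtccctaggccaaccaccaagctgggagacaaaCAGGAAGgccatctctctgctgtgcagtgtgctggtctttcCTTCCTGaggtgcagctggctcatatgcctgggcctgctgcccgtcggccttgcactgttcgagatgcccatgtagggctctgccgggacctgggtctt
Egfl7 (chr2:26586386-26586685, strand +): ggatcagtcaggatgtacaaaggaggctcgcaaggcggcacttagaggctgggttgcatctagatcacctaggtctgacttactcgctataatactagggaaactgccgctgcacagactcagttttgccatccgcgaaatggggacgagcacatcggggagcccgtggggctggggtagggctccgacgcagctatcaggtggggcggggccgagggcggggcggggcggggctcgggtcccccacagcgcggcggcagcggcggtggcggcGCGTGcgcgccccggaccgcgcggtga
The Kdr window held the hypoxia core at 2 places and the Flt1 window at 1. The windows of Tek and Tie1 held neither core. Of the 3 Egfl7 windows, 1 held the hypoxia core and the other two the ETS core. A hypoxia core occurred in 43.8% and an ETS core in 20.9% of all 32851 promoter windows of the table, so that 3 of 7 windows with the hypoxia core is near the share of all promoters. A match is a run of letters and not a site of binding.

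Epas1 itself was higher on every Ad-Epas1 array. The Epas1 probe set stood at 13.14, 13.14 and 13.11 on the Ad-Epas1 arrays, against 8.67, 8.71 and 8.51 on the Mock arrays (log2 RMA level), a difference of 4.50 (SE 0.08, limma, adjusted p = 4.6e-06). Its partner Arnt, at 11.05 ± 0.07 in Ad-Epas1 and 10.97 ± 0.02 in Mock (SD, n = 3 each), differed by 0.08 (limma, adjusted p = 0.465). Of 5 genes for HIF subunits, 1 rose, 1 fell and 3 did not pass: beside Epas1, Arnt2, a further partner gene, fell by 1.41 (adjusted p = 9.9e-04), and Hif3a, a further alpha subunit, differed by 0.15 (adjusted p = 0.243). Ets1 rose by 1.48 (SE 0.10, adjusted p = 7.8e-04), with 10.05, 10.06 and 9.90 in Ad-Epas1 and 8.69, 8.37 and 8.51 in Mock.

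Ad-Epas1 replicate 3 stood apart in transcripts of macrophages, cells in which Pecam1 and Flt1 are also known to be expressed. Of all 22180 genes, 3620 passed over all arrays and 5390 without that array. Of 15 macrophage markers, 4 fell and 11 did not pass over all arrays, and without that array 1 rose and 5 fell. Those that fell over all arrays were C1qa and C1qc, chains of complement C1q (differences of -2.04 and -2.31), the mannose receptor gene Mrc1 (-2.84) and Aif1, a calcium-binding protein (-0.60), with limma adjusted p from 0.0089 to 0.049. C1qc lost its call without any 1 of the other 5 arrays (adjusted p up to 0.145) and stood at -1.51 without Ad-Epas1 replicate 3. The list's median deviation from the Mock mean was -0.10, -0.30 and -3.80 on Ad-Epas1 replicates 1, 2 and 3, against 0.16, -0.07 and -0.06 on Mock replicates 1, 2 and 3. Its summed level, as log2, was 15.25, 15.04 and 11.62 in Ad-Epas1 and 15.43, 15.14 and 15.15 in Mock. Lyz2, the macrophage lysozyme, stood at 12.86, 12.78 and 7.15 in Ad-Epas1 and at 12.94, 12.81 and 12.75 in Mock, although the labels give under 1% of cells as CD14+ and over 90% as CD90+. Less RNA of a cell type and fewer of its cells cannot be told apart in such bulk samples. Fibroblast markers were high on all arrays, 11 of 12 above the 95th percentile of olfactory receptor genes on each (2 rose, 2 fell and 8 did not pass, with 5 falls both without that array and with each array centred on its olfactory receptor genes), with a median deviation of -0.28, -0.24 and -0.10 on Ad-Epas1 replicates 1 to 3. Pdpn (podoplanin) rose by 0.73 and Prg4 (lubricin) by 0.55, and Cdh11 (cadherin-11) fell by 1.26 and Col3a1 (a collagen chain) by 0.89. Pdpn kept its call with any 1 array left out, and Cdh11, Prg4 and Col3a1 lost theirs without some (adjusted p up to 0.112).

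Most of the endothelial genes lay low in both groups. The median over all genes tested was 7.25 to 7.30 on the 6 arrays, and Egfl7 was above it on each. Since probe sets differ in brightness, each gene was set against the spread of 1105 olfactory receptor genes, which are not expected in these cells, and not against other members. These had a median between 4.38 and 4.54 and a 95th percentile between 6.59 and 6.81 over the 6 arrays. Egfl7, Flt1, Cdh5, Nos3 and Vwf lay above the 95th percentile on all 6 arrays. By mean level, 13854 of the 22180 genes tested lay above it, these 5 members among them. None of the 10 lay above the 99th percentile (7.37 to 7.58) on all 6 arrays: Egfl7 did so on each of the 3 Ad-Epas1 arrays and on Mock replicate 1, and Flt1 on Ad-Epas1 replicates 1 and 2 and Mock replicate 2. Pecam1 exceeded the 95th percentile on 2 Ad-Epas1 arrays, and Kdr on 1 Mock array. Tek, Tie1 and Angpt2 were below it on every array, Angpt2 between the 77.3 and 85.6 percentiles. All 10 were above the olfactory median on each array. For the other 5 genes, then, at least 1 array gave a level no higher than the 95th percentile of genes not expected in the cells. RMA differences at such levels may understate a change, which was not tested here.

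**Figure D1:**
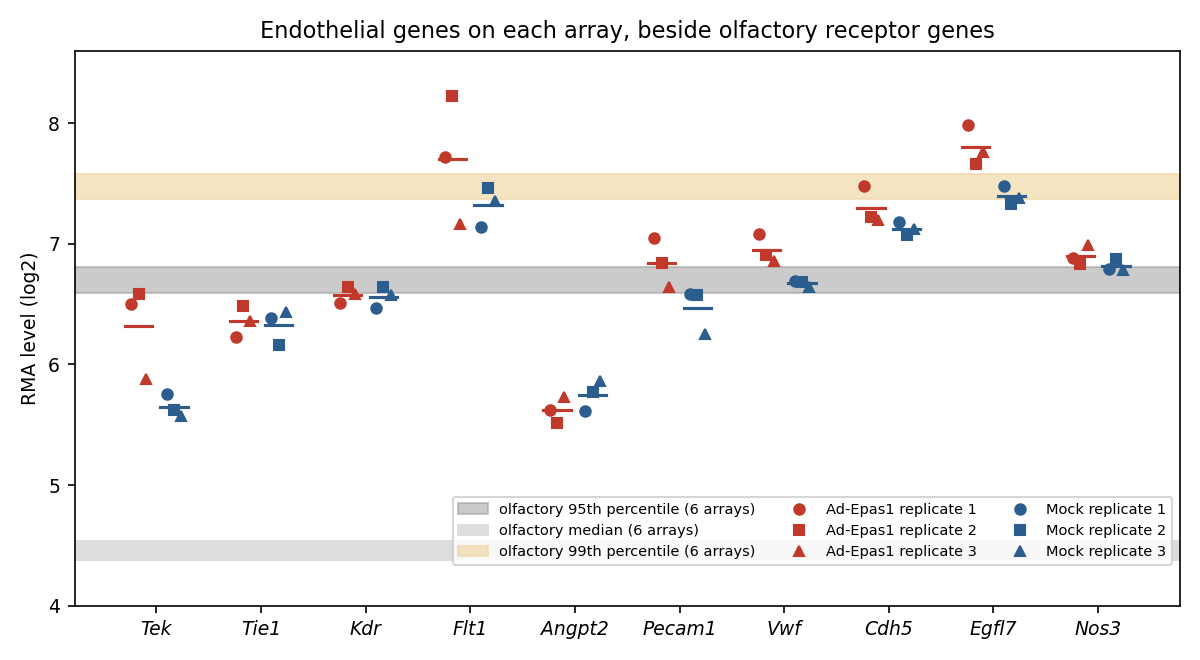
Log2 RMA levels of the 10 endothelial genes on each array, with Ad-Epas1 (red) to the left of Mock (blue), horizontal bars at group means and bands giving the range over 6 arrays of the median, 95th and 99th percentile of olfactory receptor genes. Tek, Tie1, Kdr and Angpt2 sit at or under the 95th percentile band, and Egfl7 and Flt1 are the genes with arrays above the 99th percentile band.

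Of the 10 genes, 1 rose in Ad-Epas1, none fell and 9 did not pass the test (limma over all 22180 genes, two-sided, Benjamini-Hochberg adjusted p under 0.05). Of all genes tested 16.3% passed, 6.57% upwards and 9.75% downwards, and of 7892 genes within the members' range of mean level (5.68 to 7.60) 9.98% passed. At an unadjusted p under 0.05, 4 of the 10 were higher and none lower, where 32.5% of all genes passed in either direction and 16.3% upwards. The gene that rose was Egfl7, and by less than 1.5-fold, so none of the 10 reached that size with a call, where 7.75% of all genes did. The 3 Ad-Epas1 arrays lay above the 3 Mock arrays for Egfl7, Tek, Vwf, Pecam1 and Cdh5, 5 of 10 genes, where groups did not overlap for 39.7% of all genes (21.3% higher, 18.4% lower). The count of 1 depended on the arrays and on scaling: 5 rose without Ad-Epas1 replicate 3 and none without any other single array, and none rose when each array was centred on its median. Of all 22180 genes, 5390 passed without Ad-Epas1 replicate 3 (2290 upwards) and 3822 with that centring (1080 upwards). The main fit gave 3620 (1458 upwards).

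Egfl7, whose protein guides the assembly of vessel tubes, stood at 7.99, 7.66 and 7.76 in Ad-Epas1, against 7.48, 7.33 and 7.38 in Mock. Every Ad-Epas1 array was above every Mock array. The difference was 0.41 on the log2 scale, 1.33-fold (SE 0.10, 95% interval 0.17 to 0.65, adjusted p = 0.038). It lost its call without any 1 of the arrays other than Ad-Epas1 replicate 3 (adjusted p from 0.055 to 0.14), with values between 0.32 and 0.48. With each array centred on its median it was 0.36 (adjusted p = 0.058). Egfl8, its paralogue, differed by 0.16 (adjusted p = 0.24). A further probe set, annotated to both Egfl7 and Mir126a, was left unnamed and not tested. Its levels were 3.93, 3.93 and 4.04 in Ad-Epas1 and 3.95, 4.07 and 4.13 in Mock, with no rise. All were below the olfactory median of their array.

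Tek, the receptor also called Tie2, had the greatest difference among the 10 but did not pass. It stood at 6.50, 6.58 and 5.88 in Ad-Epas1, against 5.76, 5.62 and 5.57 in Mock. The groups did not overlap, and Ad-Epas1 replicate 3 was much closer to the Mock arrays than to replicates 1 and 2. The difference was 0.67, 1.60-fold (SE 0.19, 95% interval 0.23 to 1.12, adjusted p = 0.054). Without Ad-Epas1 replicate 3 it was 0.89 (adjusted p = 9.7e-04), at a level below the olfactory 95th percentile on both remaining Ad-Epas1 arrays. Its relative Tie1, a receptor that modulates signalling by Tek, stood at 6.23, 6.48 and 6.36 in Ad-Epas1 and at 6.38, 6.16 and 6.43 in Mock, groups that overlapped. The difference was 0.03 with a 95% interval from -0.22 to 0.28 (adjusted p = 0.87), and its sign turned to -0.02 with each array centred on its median.

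Kdr is the main signalling receptor for VEGF-A. It stood at 6.51, 6.64 and 6.58 in Ad-Epas1 and at 6.46, 6.64 and 6.58 in Mock. The difference of 0.02 had a 95% interval from -0.17 to 0.20 (adjusted p = 0.90), at a level where RMA differences may understate a change, and it was -0.03 with each array centred on its median. Flt1, which binds VEGF-A and also the placental growth factor that Pgf encodes, stood at 7.72, 8.22 and 7.17 in Ad-Epas1, against 7.14, 7.46 and 7.35 in Mock. Ad-Epas1 replicates 1 and 2 were above all Mock arrays and replicate 3 lay among them. The difference was 0.38 (SE 0.25, 95% interval -0.22 to 0.99, adjusted p = 0.34), and 0.65 without Ad-Epas1 replicate 3 (adjusted p = 0.033). Angpt2, the ligand that can block Tek in resting endothelium, was the one member with a negative difference. It stood at 5.63, 5.51 and 5.73 in Ad-Epas1 and at 5.61, 5.77 and 5.86 in Mock, groups that overlapped, and the difference was -0.12 (95% interval -0.35 to 0.10, adjusted p = 0.40).

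The adhesion and clotting genes had positive differences, and none of them passed. Pecam1, which encodes CD31, stood at 7.05, 6.84 and 6.64 in Ad-Epas1 and at 6.58, 6.58 and 6.25 in Mock. The groups did not overlap, with an SD of 0.21 in Ad-Epas1 and 0.19 in Mock, and the difference was 0.37 (95% interval 0.05 to 0.70, adjusted p = 0.115). Vwf stood at 7.08, 6.91 and 6.86 in Ad-Epas1, against 6.69, 6.69 and 6.64 in Mock. Its Mock values were close together (SD 0.03), and the difference was 0.28 (SE 0.08, 95% interval 0.09 to 0.47, adjusted p = 0.059). Cdh5, VE-cadherin, stood at 7.48, 7.22 and 7.19 in Ad-Epas1 and at 7.18, 7.07 and 7.12 in Mock, with Ad-Epas1 replicate 1 the highest, and a difference of 0.17 (95% interval -0.05 to 0.40, adjusted p = 0.25). Nos3 stood at 6.88, 6.83 and 6.99 in Ad-Epas1 and at 6.79, 6.87 and 6.79 in Mock. Its groups overlapped and it differed by 0.09 (95% interval -0.09 to 0.26, adjusted p = 0.445).

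Small positive differences were common among dim probe sets on these arrays. The median difference was 0.23 over the 10 genes, 0.05 over all genes, 0.09 over the 7892 genes in the same range of level and 0.08 over the olfactory receptor genes. Positive differences were found in 9 of the 10 genes, in 70.5% of genes in that range and in 74.1% of olfactory receptor genes, of which 26 rose and 2 fell (2.53%). Among genes of the same range, Nos3 lay at the 49.9 percentile of differences, Cdh5 at 73.7, Kdr at 32.6, Tie1 at 35.4 and Angpt2 at 15.5. Vwf lay at 89.7, Pecam1 at 94.8, Flt1 at 95.1, Egfl7 at 95.8 and Tek at 98.5. With each array centred on the median of its olfactory receptor genes, none of the 10 passed, and the differences were 0.60 for Tek (adjusted p = 0.098), 0.33 for Egfl7 (adjusted p = 0.064), 0.20 for Vwf (adjusted p = 0.19) and 0.01 for Nos3 (adjusted p = 0.94).

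**Figure D2:**
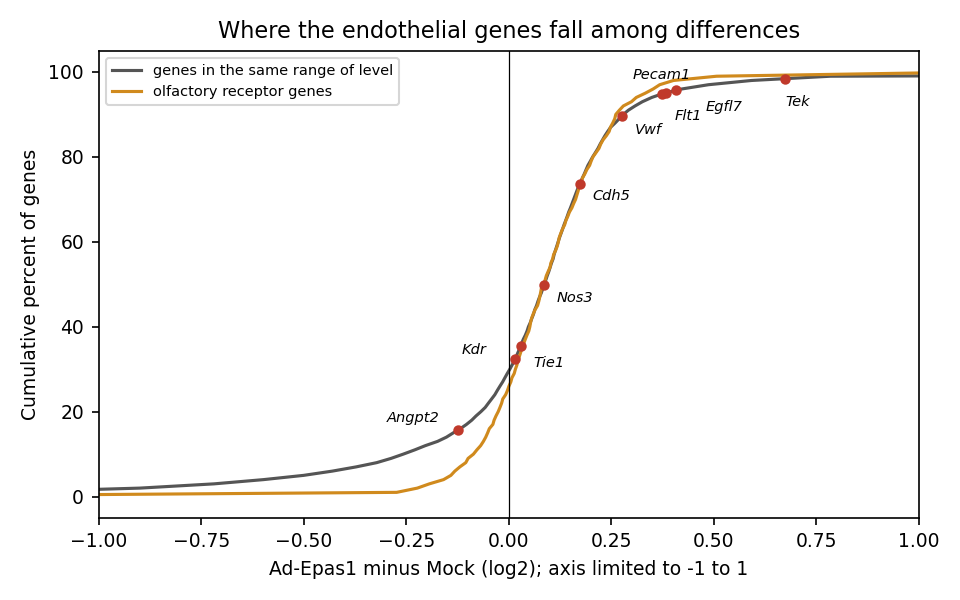
Cumulative percent of genes (vertical axis) by log2 difference of Ad-Epas1 minus Mock (horizontal axis, limited to the range shown), for the 7892 genes in the same range of level (grey) and the 1105 olfactory receptor genes (orange), with the 10 endothelial genes as red points on the grey line. Nos3 falls in the middle of both curves, Kdr and Tie1 below the middle, and Tek, Egfl7, Flt1 and Pecam1 in the upper tail.

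The deviations of Tek from the Mock mean were 0.85, 0.94 and 0.23 on Ad-Epas1 replicates 1, 2 and 3, those of Flt1 0.40, 0.90 and -0.15, and those of Pecam1 0.58, 0.37 and 0.17. On the array with low macrophage markers, replicate 3, these 3 genes had their lowest Ad-Epas1 value, and so had Vwf (0.41, 0.24 and 0.18) and Cdh5 (0.35, 0.10 and 0.07). Nos3 (0.06, 0.02 and 0.18) and Angpt2 (-0.12, -0.23 and -0.02) had their highest there. Egfl7 (0.59, 0.27 and 0.37), Kdr (-0.05, 0.08 and 0.02) and Tie1 (-0.10, 0.16 and 0.03) had their middle value there. Without that array the calls were those of Tek, Egfl7, Vwf, Pecam1 and Flt1 (values of 0.89, 0.43, 0.32, 0.48 and 0.65, adjusted p from 9.7e-04 to 0.038), while 5390 genes passed in all, against 3620 over the 6 arrays. Kdr, Tie1, Angpt2, Cdh5 and Nos3 did not pass without it either. The part of the macrophage transcripts in these differences was not tested.

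**Figure D3:**
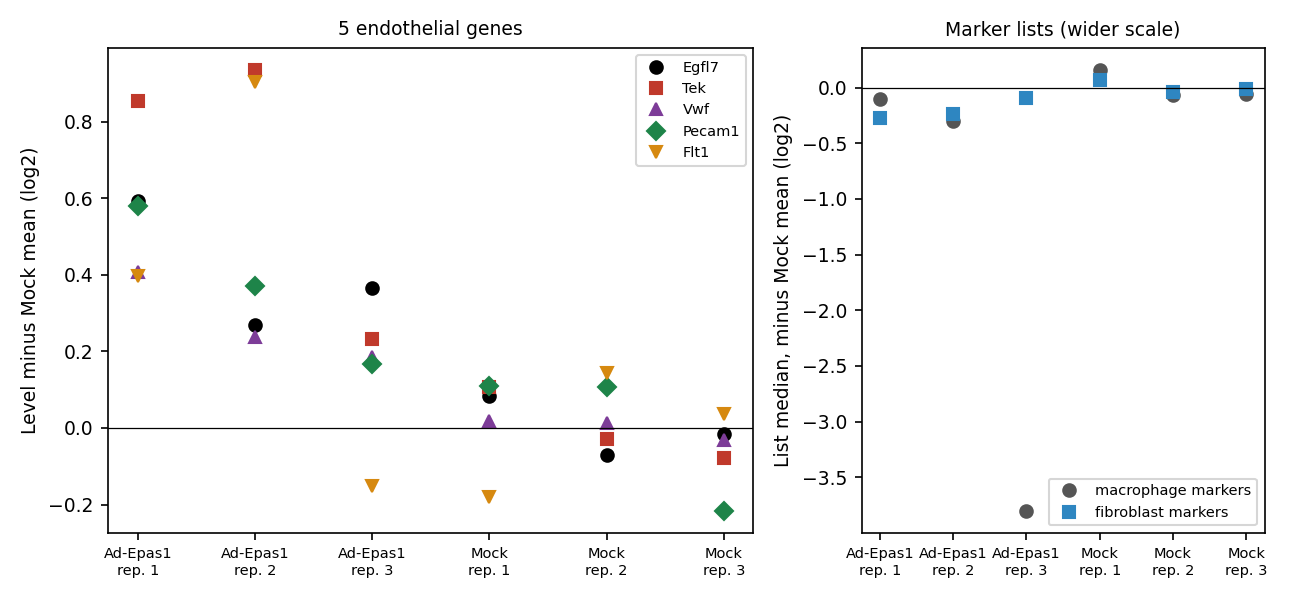
Deviation from the Mock mean (log2) on each array, Ad-Epas1 left and Mock right, for 5 endothelial genes (left panel) and for the medians of the macrophage and fibroblast marker lists (right panel, on a wider scale). On Ad-Epas1 replicate 3 the macrophage markers are at -3.80, and Tek, Flt1 and Pecam1 are at 0.23, -0.15 and 0.17, nearer to the Mock arrays than on the other two Ad-Epas1 arrays.

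Among other genes of the same signalling systems were larger differences than in the members. Of 8 VEGF ligands and further VEGF receptors, 3 rose, 1 fell and 4 did not pass, with a median difference of 0.02. Vegfa, the ligand of Kdr and Flt1, stood at 12.52, 12.60 and 12.20 in Ad-Epas1, against 11.19, 10.56 and 10.55 in Mock, a rise of 1.67 (SE 0.20, adjusted p = 0.0039). Pgf, the ligand of Flt1, stood at 10.34, 9.93 and 7.13 in Ad-Epas1, against 5.30, 5.34 and 5.17 in Mock, a rise of 3.86 (SE 0.78, adjusted p = 0.020). Its rise was 4.86 without Ad-Epas1 replicate 3 and 3.26 without replicate 1, and leaving out any of the other 5 arrays ended the call (highest adjusted p 0.082). All 3 Mock values lay below the olfactory 95th percentile and all 3 Ad-Epas1 values above it, so the size of the rise is that of the deposited values and may understate the change.

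Flt4, the VEGF-C and VEGF-D receptor of lymphatic endothelium, was the VEGF receptor gene that rose. It stood at 9.59, 9.09 and 8.42 in Ad-Epas1, against 7.19, 6.85 and 7.36 in Mock, where all 3 values were below the olfactory 99th percentile and above the 95th. The rise was 1.90 (SE 0.29, 95% interval 1.20 to 2.60, adjusted p = 0.0088) and kept its call with any 1 array left out. Nrp1, a co-receptor for VEGF-A that works with Kdr, fell by 1.22 (SE 0.15, adjusted p = 0.0043), with 9.64, 9.62 and 9.09 in Ad-Epas1 and 10.66, 10.66 and 10.69 in Mock.

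Among 6 partners of the angiopoietin receptors, 1 rose, 3 fell and 2 did not pass, with a median of -0.66. Angpt1, the activating ligand of Tek, stood at 5.18, 5.56 and 5.53 in Ad-Epas1, against 6.91, 6.41 and 6.31 in Mock, and fell by 1.12 (SE 0.18, adjusted p = 0.010). All 3 Ad-Epas1 values and 2 of the 3 Mock values were below the olfactory 95th percentile, so the size of that fall is uncertain. Angpt4, a further ligand of Tek, fell by 1.31 (SE 0.17, adjusted p = 0.0050), with 8.28, 8.20 and 8.20 in Ad-Epas1 and 9.13, 9.73 and 9.76 in Mock. Svep1, a large extracellular protein that binds TIE1, fell by 1.48 (adjusted p = 0.023), a call that ended when any of those same 5 arrays was left out (highest adjusted p 0.093). Foxo1, a transcription factor that signalling by Tek restrains, rose by 0.97 (SE 0.07, adjusted p = 9.3e-04). Ptprb, the endothelial phosphatase of Tek, stood at 6.20 ± 0.14 in Ad-Epas1 and 6.01 ± 0.12 in Mock (adjusted p = 0.24).

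**Figure D4:**
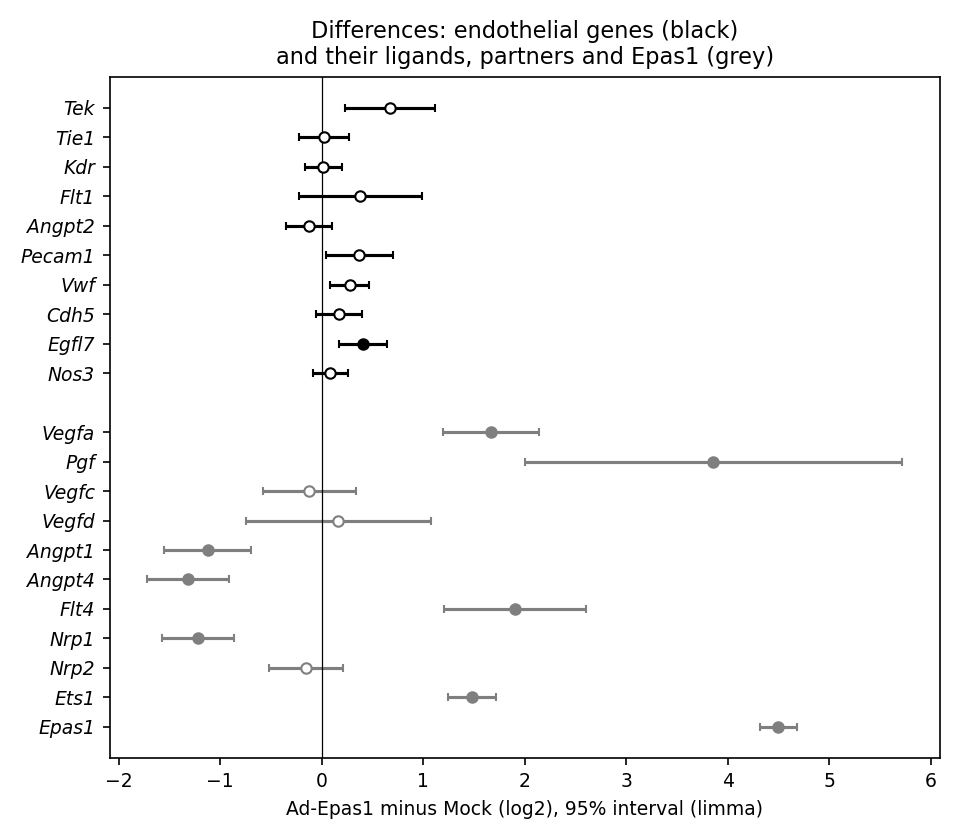
Log2 difference of Ad-Epas1 minus Mock with 95% intervals for the 10 endothelial genes (black) and for ligands, further receptors, Ets1 and Epas1 (grey), with filled points for genes that passed at an adjusted p under 0.05. The 10 endothelial genes lie between -0.12 and 0.67, and Epas1 is at 4.50, Pgf at 3.86, Flt4 at 1.90 and Angpt4 at -1.31.

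Of 21 measured endothelial surface and junction markers, 20 did not pass, none fell and 1 rose. With Ad-Epas1 replicate 3 left out there were 4 rises and 1 fall, where 5390 of all 22180 genes passed. The 21 markers had a median difference of 0.14, and 10 lay above the olfactory 95th percentile on every array. The gene that rose was Jam2, a junction protein also found outside endothelium, at 9.87, 9.69 and 9.61 in Ad-Epas1 and 9.27, 9.35 and 9.22 in Mock (0.44, adjusted p = 0.019). Its call was lost without Ad-Epas1 replicate 2 or any 1 Mock array (adjusted p up to 0.086). Esam, an endothelial adhesion molecule, differed by 0.66 (adjusted p = 0.061, and 0.017 without Ad-Epas1 replicate 3), and Clec14a, a surface lectin of endothelium below the olfactory 95th percentile on all arrays, by -0.28 (adjusted p = 0.072). Of 19 endothelial transcription factors, 4 rose, 2 fell and 13 did not pass, with a median of 0.07. Beside Ets1, Hey1, a target of Notch whose Mock values were below the olfactory 95th percentile, rose by 0.45 (adjusted p = 0.0078). Lmo2, an adaptor of transcription complexes, fell by 0.58 (adjusted p = 0.0037). The other fall was that of Hey2, the relative of Hey1 (-0.39, limma adjusted p = 0.020), whose Ad-Epas1 values were below the olfactory 95th percentile.

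Of 8 genes of the endothelial tip cell, the leading cell of a vessel sprout, 3 rose, none fell and 5 did not pass, with a median of 0.63. Beside Pgf these were Esm1, a secreted proteoglycan, and Apln, a secreted peptide. Esm1 averaged 10.85 ± 0.78 in Ad-Epas1 and 7.45 ± 0.16 in Mock (SD, n = 3 each; limma difference 3.40, SE 0.36, adjusted p = 0.0027). Apln averaged 11.74 ± 0.63 in Ad-Epas1 and 9.30 ± 0.43 in Mock (SD, n = 3 each; limma difference 2.43, SE 0.34, adjusted p = 0.0067). Among 13 partners and isoforms of Nos3, 3 rose, 1 fell and 9 did not pass, with a median of -0.04. The inducible isoform Nos2 rose by 3.66 (adjusted p = 0.012), and by 4.47 without Mock replicate 1, and lost its call without Ad-Epas1 replicate 2 or Mock replicate 2 or 3 (adjusted p up to 0.056). Gch1, which makes the synthase's cofactor, rose by 1.35 (SE 0.11, adjusted p = 0.0013), and Hsp90aa1, a chaperone that binds Nos3, by 0.43 (SE 0.06, adjusted p = 0.0075). The gene of this list that fell was Ddah2, by 1.34 (adjusted p = 0.042). Its call ended without any 1 of the 5 arrays other than Ad-Epas1 replicate 3 (highest adjusted p 0.14).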

How the data were processed

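Total RNA (300 ng per array) of 3 Ad-Epas1 and 3 Mock samples was measured on 6 Affymetrix arrays. The authors deposited log2 values per probe set, and the submitters' processing notes name RMA and Affymetrix Expression Console 1.3.1. RMA corrects background, equalizes the arrays' quantiles and summarizes probes. Equal quantiles hide a change shared by most genes, and such summaries compress large folds. The deposited values were not fully equal in this way. Their median over all probe sets was 6.82, 6.82 and 6.84 on the Ad-Epas1 arrays and 6.78, 6.79 and 6.77 on the Mock arrays. The number of arrays limits the precision. A genome build for the arrays is not given in the labels.

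Of 41345 probe sets, 23521 had 1 gene symbol. Those with several symbols (1814) or none (16010) were left unnamed. The probe set with the highest mean stood for each of 22180 genes. The Entrez identifiers of 23328 probe sets were in the RefSeq table of GRCm38.p6, which changed 0 symbols. Differences of Ad-Epas1 minus Mock came from limma 3.58.1 (lmFit, eBayes, in R 4.3.3). The fit was also run on simulated data with independent noise for each gene. That simulation held no array deviating over many genes together, as Ad-Epas1 replicate 3 did in macrophage markers.

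Named genes were all members, and of each of 13 further lists (122 of 129 symbols measured) up to 3 with the smallest p, and every called gene where 5 or fewer were called, with the 3 genes most like Egfl7. Arnt, Ptprb, Lyz2, Pf4 and Hey2 were added after their values were seen. Members and lists were chosen with earlier results of these data known. Alternatives were a replicate block, leaving out arrays, scaling, filters on level, variance models and the treatment of several probe sets. The labels do not say whether a replicate number marks a shared culture or day, so the numbers were not used as pairs. Same-numbered arrays deviated from their group means with r = 0.34, -0.19 and 0.21. The highest r of each such Ad-Epas1 array with another number was -0.24, 0.2 and 0.27. With 3 arrays in each group these values cannot decide whether the samples were paired.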

Additional observations from a re-analysis of the deposited data

How the results depend on the processing

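The count of 1 member called was 0 to 5 with 1 array left out, 3 with a replicate block, 4 when Mock replicate 1 was left out together with Ad-Epas1 replicate 3, 2 among the genes above the olfactory 95th percentile, where 5 members remained, 2 with trend and robust fitting, 5 with array weights, and 0 without shared variance, with each array centred on its median, or with each centred on its olfactory receptor genes. With the replicate block the 3 calls were Egfl7, Tek and Pecam1 (limma adjusted p = 0.034, 0.041 and 0.045). Whether the numbers mark pairs is not known. Every call of a member under any of these settings was a higher level in Ad-Epas1. The count of members above the olfactory level on all arrays was 8 at the 90th and 0 at the 99th percentile, against 5. Over all genes, the count of 3620 was 1181 to 5390 with 1 array left out and 6000 without both arrays. It was 3108 with a replicate block, 3752 with trend and robust fitting, 7791 with array weights and 1448 without shared variance. Among the 13854 genes above the olfactory 95th percentile, 3856 passed. Centring each array on its median over all probe sets gave 1080 rises and 2742 falls, and centring on olfactory receptor genes 862 and 2928, against 1458 and 2162. Differences near 0 changed sign. Tie1 (0.03) was -0.052 to 0.092 with 1 array left out, -0.041 after another quantile step, -0.022 with median centring and -0.048 with olfactory centring. Kdr (0.02) was -0.032 to 0.057 with 1 array left out, -0.035 without both arrays, -0.048 after the quantile step, -0.035 with median centring and -0.060 with olfactory centring. The other 8 members kept their sign under every setting run. The causes were not tested. The low level of most members over the olfactory range limits what their differences can show. The centring on olfactory receptor genes and the joint omission of both arrays were added after seeing the data.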

Other observations

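Markers of neighbouring vascular cell types were read on the same arrays. Of all 22180 genes, 3620 passed over these arrays, and 5390 without Ad-Epas1 replicate 3. Of 3 measured lymphatic endothelial markers, 1 rose, none fell and 2 did not pass, with a median of 0.23. The gene that rose was Flt4. Prox1, the factor that sets lymphatic identity, stood at 5.95, 6.13 and 5.96 in Ad-Epas1 and at 5.66, 5.81 and 5.89 in Mock (0.23, limma adjusted p = 0.14), and Lyve1, a hyaluronan receptor, at 6.80 ± 0.04 in Ad-Epas1 and 6.65 ± 0.06 in Mock (SD, n = 3 each, adjusted p = 0.18). Of 10 mural cell markers, none rose, 2 fell and 8 did not pass, with a median of -0.01 and 3 falls without Ad-Epas1 replicate 3. Those that fell were Pdgfrb, the receptor for platelet-derived growth factor B (-1.20, adjusted p = 0.0044), and Acta2, smooth muscle actin (-0.96, adjusted p = 0.014), both of which fibroblasts also express. Cspg4, the pericyte proteoglycan NG2, was at -0.90 (adjusted p = 0.0501) and passed without Ad-Epas1 replicate 3 (-1.17, adjusted p = 0.0024). Acta2 lost its call without Ad-Epas1 replicate 2 or Mock replicate 2 or 3 (adjusted p up to 0.068). Of 4 measured platelet markers, none passed (1 rose without Ad-Epas1 replicate 3), and Itga2b, the platelet integrin chain, differed by 0.15 (adjusted p = 0.32), the chemokine Ppbp by -0.34 (adjusted p = 0.375) and Gp9, a platelet glycoprotein, by 0.09 (adjusted p = 0.486). The remaining marker, Pf4, varied widely, with 12.04, 11.62 and 6.34 in Ad-Epas1 and 10.83, 8.57 and 8.50 in Mock (0.70, limma adjusted p = 0.78).

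The 3 genes most like Egfl7 over the 6 arrays, by Pearson correlation among all genes tested, were Nlgn2, F10 and Zmat4, with r = 0.998, 0.997 and 0.997. Nlgn2, a synaptic adhesion protein, stood at 9.73, 9.48 and 9.54 in Ad-Epas1 and at 9.34, 9.25 and 9.30 in Mock. F10, coagulation factor X, stood at 7.53, 7.13 and 7.30 in Ad-Epas1 and at 6.95, 6.74 and 6.85 in Mock. The 6 arrays fall in 2 groups, which these genes share, so the values are a description.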
